A study of Mus musculus with 12 samples.

Results

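Follicular helper (Tfh) cells sorted from MC38 tumours were compared with naive CD4+ T cells that had been cultured toward the T helper 1 (Th1) state. The comparison rested on 6 of the 12 libraries of the series, 3 of each kind, taken by their labels, and on the 20125 of 35492 gene symbols with a mean of at least 1 scaled TPM in either group. MC38 is a colon carcinoma line that grows in C57BL/6 mice, and all mice here were C57BL/6J animals of 7 weeks. The tumour group held CD4+ T cells sorted as CXCR5+ and PD1+ from MC38 tumours, so Cd4, Cxcr5 and Pdcd1 encode the proteins of the gate. The Th1 group began as naive T cells of wild-type spleen and lymph nodes and grew on plates coated for CD3 and CD28 stimulation, with IL-12 at 10 ng/ml and an antibody against IL-4 at 10 µg/ml. The titles of the Th1 libraries give 24 h of culture and the protocol gives 48 h. The other 6 libraries came from Tfh cultures with IL-6 and IL-21 at 50 ng/ml each and antibodies against IL-4, IFNγ and TGFβ at 10 µg/ml. They were begun from naive wild-type cells (24 h in the titles) or from naive cells of OT-II mice (48 h in the titles), whose T cells carry a receptor for ovalbumin. They entered the scaling and are quoted as a side view.

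Total RNA of 300000 CD4+ T cells, depleted of ribosomal RNA, was sequenced in each case. Nothing in the labels says whether the 3 libraries of a group came from separate animals, tumours or cultures, whether tumours were pooled, or how pure the sort was, so every p-value here measures only the spread between these libraries. Tissue of origin, stimulation, cytokines and time differed together between the groups and cannot be told apart. In bulk RNA, fewer cells of a type and less RNA per cell cannot be told apart either.

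Tfh cells help B cells to make high-affinity antibody. They depend on the transcriptional repressor Bcl6, carry the chemokine receptor CXCR5 and the receptors PD1 and ICOS, and secrete IL-21. Th1 cells arise when IL-12 signals through STAT4 and the transcription factor T-bet (Tbx21), and they are known for interferon gamma (Ifng). CXCR5+ PD1+ cells can also include follicular regulatory T cells, which express Foxp3 in addition to Tfh genes.

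Levels are given in scaled TPM, the deposited transcript abundances, which sum to 1000000 in each library, divided by a size factor for each library. Fold changes are differences of log2(scaled TPM + 1), tumour minus Th1 culture, so they understate the change of genes at low levels, and ± after a fold change is its standard error. A gene was called where limma's adjusted p over all genes tested was under 0.05, and rose and fell are used of called genes only. TPM keeps no read depth, so no counting error could be attached to any value, and a value of 0 means only that a gene is listed at 0. The scaling mattered: 11 gene models built on satellite repeats, led by Gm10800, took up 18.6%, 3.41% and 14.5% of all TPM in the tumour libraries and 43.0%, 61.6% and 33.4% in the Th1 libraries. Symbols listed at 0 made up 14.5% to 18% of all symbols in the tumour libraries and 19.5% to 41.4% in the Th1 libraries. On both measures the groups did not overlap, with p = 0.1 in the two-sided exact permutation test, the smallest value its 20 arrangements allow. Size factors ran from 1.15 to 1.42 for the tumour libraries and from 0.472 to 0.668 for the Th1 libraries, and the rank correlation was 0.865 to 0.869 within the tumour group, 0.826 to 0.828 within the Th1 group and 0.798 to 0.837 between them.

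**Figure D1:**
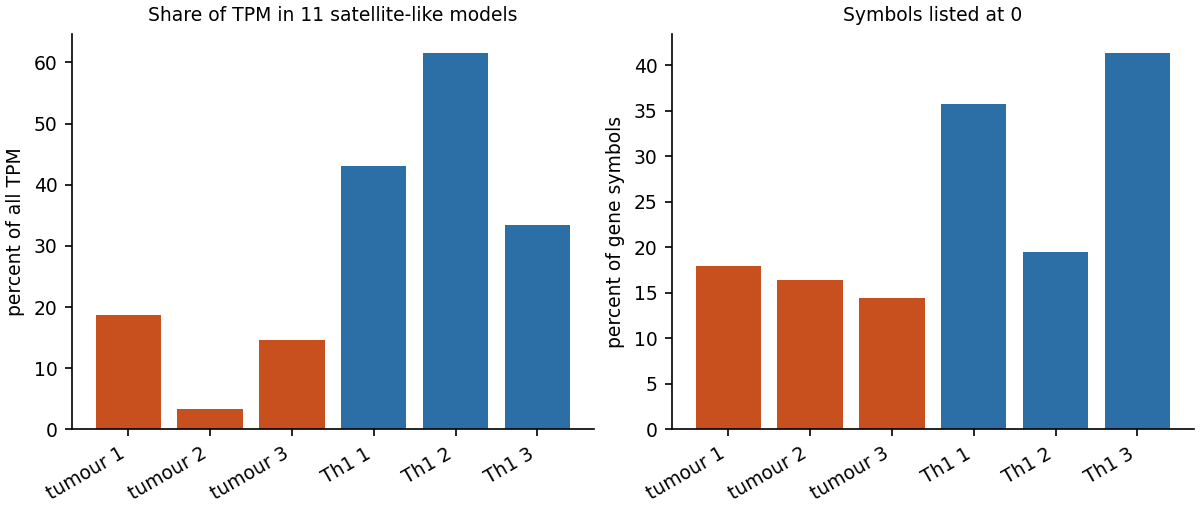
Bars show, for each of the 6 libraries, the percentage of all deposited TPM in 11 satellite-like gene models (left) and the percentage of the 35492 gene symbols listed at 0 (right), tumour libraries in orange and Th1 libraries in blue. Tumour replicate 2 has the lowest satellite share at 3.41%, and every Th1 bar stands above every tumour bar in both panels.

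Of the 20125 genes tested, 815 rose in the tumour cells (4.05%) and 392 fell (1.95%), and these shares are the background for every list below. At an unadjusted limma p under 0.05, 3100 of the 20125 were higher and 2110 lower. They are the background for list counts at that threshold. With all 12 libraries in the fit, which takes the spread from all 4 groups, 2429 rose (12.1%) and 1776 fell (8.82%). Among them were 808 of the 815 rises and all 392 falls. Rank correlations within the Tfh cultures, 0.902 to 0.920 for wild type and 0.867 to 0.881 for OT-II, were above those within the Th1 group. A spread shared over all 4 groups can therefore be too small for this comparison. Adjusted p-values of such fits can then be too low, here and below. On TPM as deposited, without size factors, 9332 of 20914 genes were called higher (44.6%) and 81 lower (0.387%), and the median fold change of all genes was 0.95 there and 0.08 after scaling. All 815 rises were also called on the deposited values. Since these values raise the fold changes of most genes, this could hardly have come out otherwise. Of the 392 falls, 378 kept their direction on the deposited values and 70 were still called, so a fall here means lower relative to the other genes of the library. With satellite models, mitochondrial genes and Lars2 removed instead, the split was 1694 to 224, and with trimmed-mean scaling it was 951 to 275. Lars2 took up 14.45% of all TPM in Th1 replicate 1, and 0.14% and 0.24% in Th1 replicates 2 and 3. The median fold change was 0.42 and 0.17 in these alternatives, above that of the main fit. No scaling tried thus moved fold changes in the direction that would weaken the rises. The counts also leaned on single libraries in the 6-library fit: without tumour replicates 1, 2 and 3 in turn, 237, 57 and 39 genes rose and 53, 7 and 11 fell. Without Th1 replicates 1, 2 and 3, 479, 339 and 371 rose and 322, 114 and 141 fell. Fits of the other 11 libraries also take the spread from all 4 groups, so their larger counts do not show that the calls are stable. Without tumour replicates 1, 2 and 3 in turn, 2250, 1583 and 1821 genes rose there and 1613, 972 and 1093 fell. Without Th1 replicates 1, 2 and 3, 2201, 2453 and 2140 rose and 2100, 1876 and 1453 fell. These counts over all genes are the background for list counts of such fits below. Of the 113 called genes named in the text and below, 12 to 70 were still called in the 6-library fit without 1 library, and all 113 in each fit of 11 libraries. Of the genes that rose, 66.5% were protein coding and 29.9% were pseudogenes, which made up 19.6% of the genes tested. Of the rises, 116 (14.2%) were listed at 0 in all 3 Th1 libraries, beside 602 (2.99%) of the genes tested. Such genes passed the limit on the mean through the tumour group alone and could only be higher there.

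**Figure D2:**
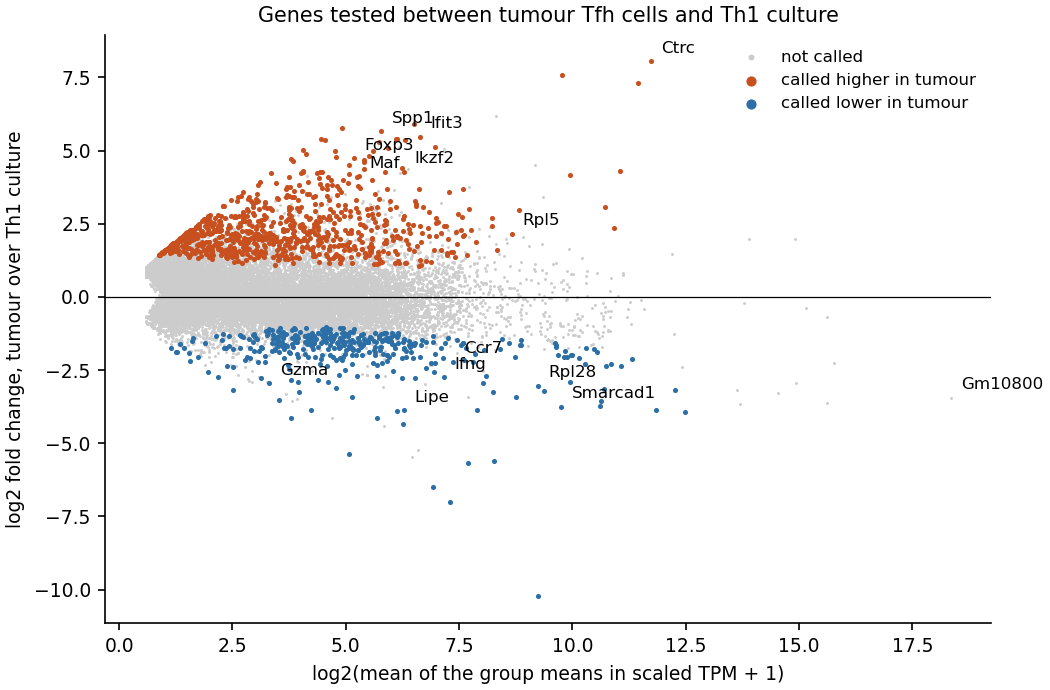
Each point is 1 of 20125 genes, with log2 of the mean level plus 1 on the x axis and the log2 fold change of tumour over Th1 culture on the y axis. The 815 genes called higher (orange) reach the fold change of Ctrc at the top, the 392 called lower (blue) include Ifng and Gzma, and Gm10800 at the far right was not called.

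The 15 largest rises of genes with a standard name were led by 3 genes whose mean was far lower in the Th1 culture than in any other group. Ctrc, which encodes the digestive protease chymotrypsin C and lies at chr4:141814962-141846359 (GRCm38, GENCODE M21), stood at 5316, 4846 and 10120 scaled TPM in the 3 tumour libraries and at 18.4, 26.6 and 25.6 in the Th1 libraries. Its log2 fold change was 8.04 ± 0.38 (adjusted p = 0.000156). Ttyh1 (7.57) and Tmem38b, which encodes a cation channel of the endoplasmic reticulum (7.32), followed, and an exon of Tmem38b overlaps a 5S ribosomal RNA gene on the same strand. TPM does not show whether reads of repeats or ribosomal RNA were assigned to Ctrc, Ttyh1 and Tmem38b, so their levels are uncertain. These 3 genes were abundant in the Tfh cultures too: Ctrc averaged 7832 ± 1074 (SD) in the wild-type and 4092 ± 910 in the OT-II culture, Ttyh1 3909 ± 406 and 2599 ± 932, and Tmem38b 13210 ± 3095 and 8574 ± 2030, 3 libraries each. Then came genes known from interferon responses and from myeloid cells: Spp1 (osteopontin, 5.65), Ifit3 (5.47), Cxcl2 (5.39), Slfn4 (5.35), Lyz2 (lysozyme M, 5.28), Il1rn (the antagonist of the IL-1 receptor, 5.14), Rsad2 (viperin, 5.08) and Ccl2 (4.79). The others were Foxp3 (4.73), the growth factor gene Areg (amphiregulin, 4.50), Sfta2 (4.40) and S100a4 (4.36).

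Spp1 stood at 18.1, 253 and 52.8 scaled TPM in the tumour libraries and at 0.418, 0.45 and 0 in the Th1 libraries. Il1rn stood at 28.4, 569 and 134 against 2.79, 2.11 and 3.42. In both genes tumour replicate 2 was far above the other tumour libraries, and no Th1 library reached the lowest tumour value. Areg had the same shape, with 4.08, 159 and 32.6 against 0.534, 0.535 and 0, whereas Sfta2 was highest in tumour replicate 1, with 236, 103 and 80.8 against 8.18, 22.1 and 0. Replicate 2 was the highest tumour library for 48.1% of the 815 genes that rose and for 35.3% of all genes tested.

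Among the 15 largest falls of genes with a standard name were several that the Th1 libraries held at unusually high levels. Smarcad1, a chromatin remodeller, stood at 178, 139.9 and 60.8 scaled TPM in the tumour and at 2129, 1264 and 1389 in the Th1 libraries (−3.74 ± 0.46, adjusted p = 0.0105). Lipe, the hormone-sensitive lipase, stood at 7.21, 9.20 and 8.11 against 212, 67.1 and 159 (−3.86 ± 0.42, adjusted p = 0.00625). The rule behind the 15 largest falls likewise required groups that do not overlap. For these genes both Tfh cultures were near the tumour level or below it. Lipe averaged 8.43 ± 0.422 (SD) and 6.84 ± 1.71 there, and Smarcad1 126 ± 17.3 and 47.6 ± 8.04. Ccdc162 (−3.90), Grip2 (−3.74), Zrsr1 (−3.40) and Xkrx (−3.23) likewise fell. The satellite share separated the same groups, and its part in these levels was not tested. The remaining large falls were Rpl28 (−3.03), Gzma (−2.94), Dpm3 (−2.91), Dapl1 (−2.90), the centriole gene Sass6 (−2.75), Ifng (−2.75), Tmem147 (−2.69), Id3 (−2.66) and Atp5g1, a subunit of the ATP synthase (−2.57).

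The labels were then set against marker genes. Cd4 stood at 105, 122 and 99.9 scaled TPM in the tumour libraries and at 109, 136 and 346 in the Th1 libraries, and Cd8a at 5.13, 3.23 and 4.07 and 3.43, 4.01 and 2.57. The groups overlapped for both genes, and in every library Cd4 was more than an order of magnitude above Cd8a. Cxcr5, used in the sort, stood at 12.8, 7.74 and 12.3 against 1.60, 4.84 and 3.49. No tumour library was as low as any Th1 library, but the fold change of 1.52 (95% interval 0.65 to 2.39) missed the threshold, with adjusted p = 0.053, and passed it with all 12 libraries, with adjusted p = 0.00469. Pdcd1, also used in the sort, stood at 22.8, 28.2 and 21.1 against 6.03, 15.7 and 21.4, and Th1 replicate 3 lay within the tumour range. Its fold change was 0.85 (95% interval −0.12 to 1.82, adjusted p = 0.243). Il21, the signature cytokine of Tfh cells, stood at 8.05, 3.71 and 4.64 in the tumour cells, at 2.74, 12.4 and 11.5 in the Th1 culture and at a mean of 75.9 ± 16.2 (SD) in the wild-type Tfh culture. Against that culture, in the fit of all 12 libraries, Il21 was lower in the tumour cells by a log2 fold change of −3.60 (adjusted p = 0.00161), where 267 of 19984 genes were called higher (1.34%) and 266 lower (1.33%).

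Of 19 tested transcription factors linked to Tfh cells, 5 rose (Maf, Prdm1, Klf2, Tox2 and Bcl6), Id3 fell and 13 were not called. The list median was 0.45 beside 0.08 for all genes tested. Bcl6, at chr16:23965052-23988852, stood at 9.57, 13.2 and 10.4 scaled TPM in the tumour and at 3.05, 3.39 and 2.79 in the Th1 libraries (1.56 ± 0.28, adjusted p = 0.0245). Every tumour library was well above the narrow Th1 range, and the wild-type Tfh culture lay between, at 5.17 ± 0.589 (SD). Maf, which drives Il21 and Il10 in helper cells, stood at 37.8, 133 and 49.3 against 2.68, 3.01 and 2.31 (4.13 ± 0.45, adjusted p = 0.00625). Prdm1, whose product Blimp-1 opposes Bcl6, stood at 10.2, 41.6 and 18.4 against 1.69, 1.83 and 1.06 (3.07 ± 0.47), so both members of this antagonistic pair rose. Klf2, which maintains recirculation and restrains Tfh formation, rose by 1.90, and Tox2, a high-mobility-group factor induced in Tfh cells, rose by 1.83. Id3, an inhibitor of E proteins, stood at 7.69, 5.13 and 6.80 against 37.9, 33.6 and 77.01 (−2.66 ± 0.36, adjusted p = 0.0132), and here the tumour libraries were all low and close together. Among the members not called, Tcf7 (TCF1) stood at 55.9 to 103 against 60.1 to 88.1, and Irf4 at 74.4 to 172 against 249.9 to 460.3.

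**Figure D3:**
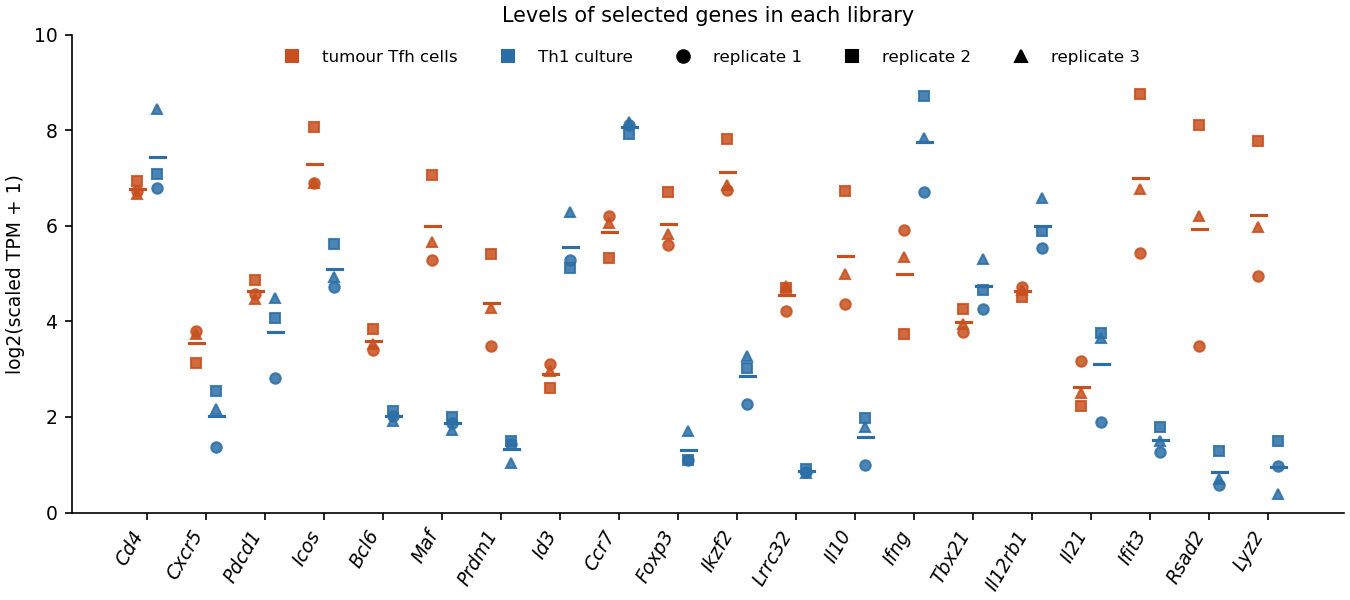
Points give log2(scaled TPM + 1) for 20 genes in the 3 tumour libraries (orange) and 3 Th1 libraries (blue), marker shapes give the replicate number and short bars the group means. Foxp3, Ikzf2, Lrrc32 and Maf separate the groups widely, Cd4, Pdcd1, Tbx21 and Il21 overlap between them, and the square of tumour replicate 2 is the highest orange point for Ifit3, Rsad2 and Lyz2.

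Few surface genes of Tfh cells were called. Of 19 tested, Icos rose, Ccr7, Cd200 and Gpr183 fell and 15 were not called, with a list median of 0.35, and 5 rose and 4 fell with all 12 libraries. In the 6-library fit the call of Icos was kept without Th1 replicate 2 and lost without each of the other libraries in turn. Icos, the inducible costimulator, stood at 118, 269 and 118 scaled TPM in the tumour and 25.4, 48.4 and 29.5 in the Th1 libraries (2.20 ± 0.41, adjusted p = 0.0266). Ccr7, the receptor that holds T cells in the T zone of lymph nodes, stood at 72.6, 39.02 and 66.01 against 276, 243 and 289.7 (−2.21 ± 0.31, adjusted p = 0.0136), with the 3 Th1 libraries close together and every tumour library far below them. Gpr183 (EBI2), which Tfh cells lose as they enter follicles, stood at 20.8, 25.6 and 19.97 against 60.7, 42.9 and 65.3 (−1.30). Cd200, whose protein is high on Tfh cells, stood at 137, 64.3 and 81.2 against 199, 301 and 262 (−1.48), lower in the sorted cells. On the deposited values Ccr7 was still called lower (adjusted p = 0.0437), whereas Gpr183 (−0.11) and Cd200 (−0.27) were not called. Sh2d1a (SAP) at 74.2 to 118 against 32.2 to 60.2 and Btla at 21.7 to 54.01 against 62.1 to 127 were not called.

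Genes of regulatory T cells had a higher list median than any other list of T cell genes except the interferon-inducible one. Of 22 tested, 10 rose, none fell and 12 were not called, with a list median of 1.75. Foxp3, the lineage factor of regulatory T cells at chrX:7573644-7595245, stood at 47.1, 103 and 56.2 scaled TPM in the tumour and at 1.15, 1.16 and 2.29 in the Th1 libraries (4.73 ± 0.36, adjusted p = 0.00149). Ikzf2 (Helios) stood at 107, 224 and 114 against 3.81, 7.18 and 8.69 (4.28 ± 0.39). Lrrc32 (GARP), which presents latent TGFβ on the cell surface, stood at 17.6, 24.9 and 25.9 against 0.794, 0.879 and 0.78 (3.69 ± 0.29). For these 3 genes the lowest tumour library was more than 10 times the highest Th1 library, and in Lrrc32 the Th1 libraries were nearly identical. Il10 stood at 19.6, 105 and 30.8 against 0.98, 2.94 and 2.48 (3.77), and Nt5e (CD73), which makes adenosine from AMP, at 34.03, 38.9 and 31.9 against 1.87, 5.02 and 2.67 (3.17). Tigit (2.82) and Ctla4 (2.68), inhibitory receptors, also rose. So did Itgae (CD103, 2.52), Nrp1 (neuropilin, 2.04) and Ikzf4 (Eos, 1.45). The members that were not called included receptors that activated conventional T cells share: Tnfrsf18 (GITR) at 98.9 to 229 against 102 to 183, Tnfrsf4 (OX40) at 229 to 432 against 155 to 242 and Il2ra (CD25) at 376 to 455 against 198 to 223.

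Replicate 2 was the highest tumour library for 17 of these 22 genes, beside 35.3% of all genes tested. In the fit of all 12 libraries 18 of 22 rose, and 16 to 18 rose with any 1 of the 6 libraries left out, 16 without tumour replicate 2. Without that library the fold change of Foxp3 was 4.40 (adjusted p = 4.69e-05) and that of Ikzf2 3.94. The wild-type Tfh culture lay between the groups, with Foxp3 at 20.6 ± 8.11 (SD) and Ikzf2 at 39.6 ± 15.1, and the OT-II culture was near the Th1 level, with Foxp3 at 1.61 ± 0.115. Against the wild-type Tfh culture, 3 of 22 rose and none fell, with Foxp3 at 1.70 (adjusted p = 0.0219) and Ikzf2 at 1.88 (adjusted p = 0.0162). That contrast shares the tumour libraries with the one above, so its values are set beside it and are no separate evidence.

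**Figure D4:**
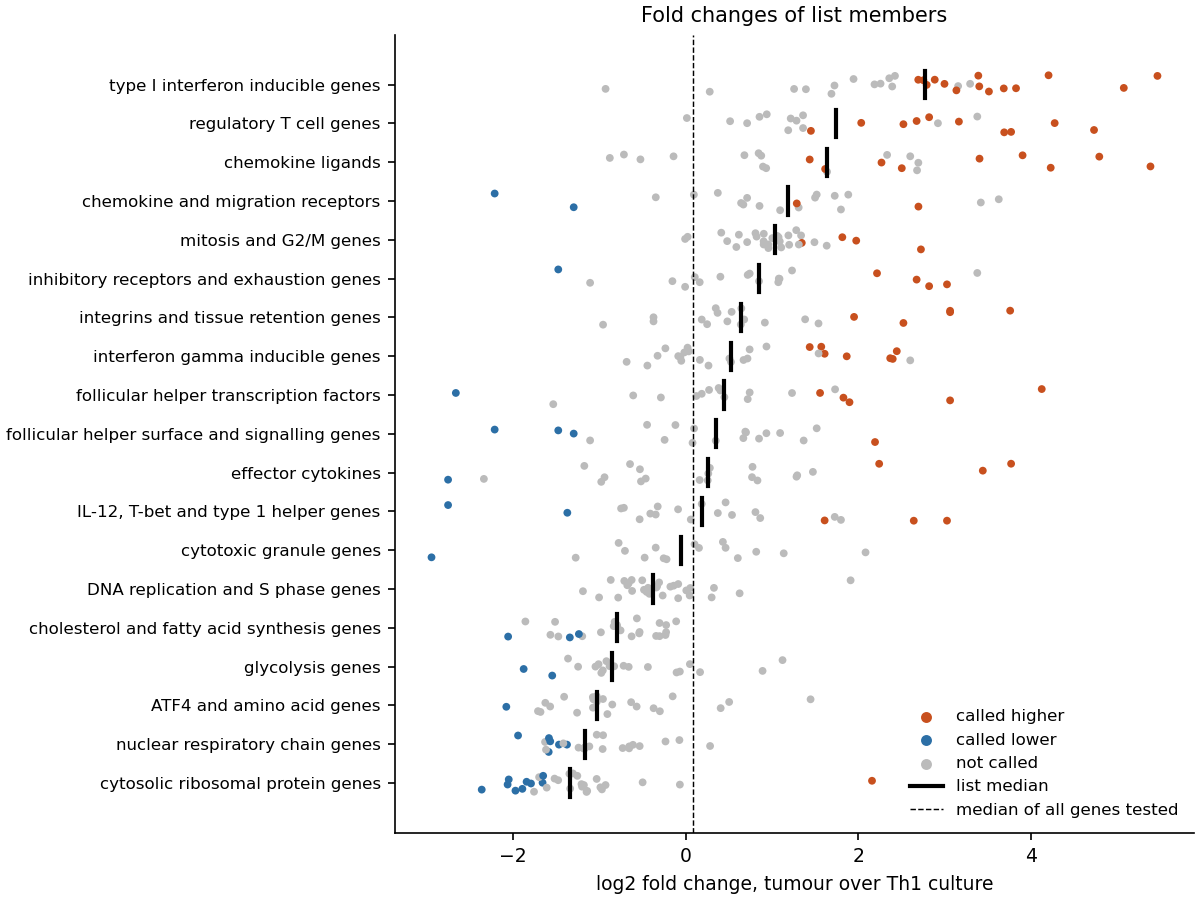
Each point is the log2 fold change of 1 tested member of 19 gene lists, coloured by its call, with the list median as a black bar and the median of all genes tested, 0.08, as a dashed line. The type I interferon list (median 2.78) and the regulatory T cell list (1.75) lie farthest right, and the ribosomal protein list (−1.34) lies farthest left apart from Rpl5.

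Interferon-inducible genes of the type I class gave the highest list median, 2.78. These genes answer interferons alpha and beta and block viral replication. Of 28 tested, 14 rose, none fell and 14 were not called, and 25 of 28 rose in the fit of all 12 libraries. Ifit3 stood at 42.4, 433 and 109 scaled TPM in the tumour and at 1.42, 2.48 and 1.81 in the Th1 libraries (5.47 ± 0.71, adjusted p = 0.0127). Rsad2 stood at 10.2, 275 and 73.03 against 0.492, 1.45 and 0.618 (5.08 ± 0.97, adjusted p = 0.0287). Rtp4 (4.21), Ifit3b (3.83) and Irf7, the factor that amplifies the response (3.69), followed, and Ifih1 (MDA5), a sensor of double-stranded RNA, rose by 3.14. Isg15 at 41.6, 312 and 67.7 against 13.8, 18.3 and 32.8 did not overlap between the groups and missed the threshold (adjusted p = 0.0927). Bst2 (tetherin) stood at 33.4, 81.3 and 30.3 against 61.04, 82.9 and 116 and was not called, with a fold change of −0.93 that turned to 0.27 on the deposited values.

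The size of these rises differed greatly among the tumour libraries. All 28 genes were highest in tumour replicate 2, and the summed level of the list was 865, 5056 and 1467 scaled TPM in tumour replicates 1, 2 and 3, against 271 to 463 in the Th1 libraries. The summed level of 18 macrophage and monocyte markers followed the same order, at 101, 849 and 234 against 40.0 to 44.9, and its part in the interferon signal was not tested. Without tumour replicate 2, 23 of the 28 genes rose and 1 fell in the fit of the other 11 libraries. The fall was Bst2, at −1.37 (adjusted p = 0.0105), and Ifit3 then rose by 4.58 (adjusted p = 4.69e-05). Both Tfh cultures were as low as the Th1 culture, with Ifit3 at 2.50 ± 0.784 (SD) and 1.52 ± 0.15, and 24 of 28 genes were higher in the tumour cells than in the wild-type Tfh culture.

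The promoters of this list were searched for GAAANNGAA, the letters that interferon regulatory factors recognise, on both strands of 300 bases, 250 before to 50 after each RefSeq start site (GRCm38.p6), which were at hand for 12133 of the 20125 genes tested. Overlapping matches were kept. They occurred in 14 of the 20 list promoters at hand (70%) and in 6 of the 12 at hand for members that rose (50%), in 18.4% of 407 genes that rose, in 10.6% of 274 that fell and in 9.26% of all tested. The 170 bases before the start are shown for 3 members that rose and for Bst2, which did not, 5′ to 3′ along the gene, with matches on either strand in capitals.
Ifit3, chr19:34583359-34583528, plus strand: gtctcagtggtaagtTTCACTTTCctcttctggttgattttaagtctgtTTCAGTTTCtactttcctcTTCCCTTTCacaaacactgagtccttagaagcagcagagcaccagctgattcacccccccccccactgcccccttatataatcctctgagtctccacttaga
Rsad2, chr12:26456453-26456622, minus strand: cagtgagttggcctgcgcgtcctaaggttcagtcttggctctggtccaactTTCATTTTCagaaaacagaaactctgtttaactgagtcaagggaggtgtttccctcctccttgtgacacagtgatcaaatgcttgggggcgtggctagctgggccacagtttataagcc
Ifih1, chr2:62646256-62646425, minus strand: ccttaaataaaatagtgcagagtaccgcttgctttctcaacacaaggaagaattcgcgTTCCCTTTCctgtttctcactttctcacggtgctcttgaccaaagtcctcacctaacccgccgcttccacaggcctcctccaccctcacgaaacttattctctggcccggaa
Bst2, chr8:71537473-71537642, minus strand: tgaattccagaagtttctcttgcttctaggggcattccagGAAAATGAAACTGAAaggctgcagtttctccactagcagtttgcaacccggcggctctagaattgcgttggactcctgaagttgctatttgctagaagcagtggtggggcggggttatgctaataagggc
Ifit3 held 3 matches, Rsad2 and Ifih1 held 1 each, and Bst2, which did not rise, held 2 that overlap. A match describes letters, not a bound site.

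Genes induced mainly by interferon gamma were less uniform. Of 27 tested, 7 rose, none fell and 20 were not called, with a list median of 0.53. Replicate 2 was the highest tumour library for 24 of the 27, beside 35.3% of all genes tested. The guanylate-binding proteins Gbp7 (2.45), Gbp9 (2.40) and Gbp3 (2.37), and the GTPase gene Tgtp2 (1.87) were among the rises. Gbp7 stood at 37.9, 125 and 44.8 scaled TPM in the tumour against 4.25, 13.8 and 16.8. Gbp2, at 135 to 169.7 against 74.3 to 212, overlapped between the groups. None of the 14 class I genes was called by limma (3 were higher and none lower at an unadjusted p under 0.05, and 2 were called higher with all 12 libraries), with B2m at 926 to 2326 against 676 to 1640. Of these 14 genes, 12 were highest in replicate 2 among the tumour libraries.

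Most genes of the IL-12 and T-bet axis were not called. Of 21 tested, 3 rose, among them Havcr2 and Ifngr1, 2 fell (Ifng and Il12rb1) and 16 were not called, with a list median of 0.19. Ifng, at chr10:118441046-118445892, stood at 59.3, 12.4 and 39.8 scaled TPM in the tumour and at 104, 419.6 and 226 in the Th1 libraries (−2.75 ± 0.65, adjusted p = 0.0468). Th1 replicate 1 was the lowest of its group and still above the highest tumour library. On the deposited values the fold change of Ifng was −1.56 and missed the threshold (adjusted p = 0.0675). Il12rb1, the shared chain of the IL-12 and IL-23 receptors, stood at 25.4, 21.9 and 24.2 against 45.1, 58.2 and 95.4 (−1.37 ± 0.32, adjusted p = 0.0454). The deposited values gave it −0.19 (adjusted p = 0.692).

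Tbx21 (T-bet) stood at 12.7, 18.2 and 14.3 scaled TPM in the tumour cells and at 18.1, 24.3 and 38.5 in the Th1 culture. Tumour replicate 2 lay just above Th1 replicate 1, and the fold change of −0.75 (95% interval −1.50 to 0.00, adjusted p = 0.195) was not called, while the wild-type Tfh culture averaged 9.27 ± 2.46 (SD). Il12rb2, the signalling chain of the IL-12 receptor, stood at 8.68, 24.5 and 7.37 against 11.3, 27.6 and 25.1 (95% interval −1.85 to 0.42). Stat4 stood at 42.5, 41.6 and 35.6 against 27.8, 66.97 and 40.5 (95% interval −0.87 to 0.70). Each of these intervals holds 0, and a missed threshold does not show that the levels were alike. On the deposited values the fold changes of Tbx21, Il12rb2 and Stat4 turned to 0.40, 0.42 and 1.09, and that of Stat4 was called there (adjusted p = 0.0337). Havcr2 (TIM-3) stood at 6.88, 49.2 and 14.8 against 0.987, 1.63 and 1.20 (3.03) and Ifngr1 at 48.7, 272 and 87.3 against 13.6, 18.5 and 16.2 (2.65), both highest in tumour replicate 2.

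Among 22 effector cytokine genes, Il10, Csf1 and Il17a rose, Ifng fell and 18 were not called. Csf1, the growth factor of macrophages, stood at 7.80, 78.3 and 22.8 scaled TPM against 1.72, 1.08 and 1.28 (3.44). Il17a was low everywhere, at 9.51, 2.43 and 6.05 against 0, 1.40 and 0 (2.24), and listed at 0 in 2 Th1 libraries. Il2 at 61.6, 13.4 and 38.1 against 80.2, 336 and 165 did not overlap between the groups and missed the threshold (adjusted p = 0.066). Tnf stood at 35.1 to 58.2 against 51.7 to 83.9. Of 16 cytotoxic granule genes only Gzma was called, at 0.301, 1.34 and 1.14 against 4.73, 30.9 and 15.3. Gzmb varied more than 10-fold among the tumour libraries, at 86.4, 1127 and 251 against 27.4, 142 and 79.1, and was not called.

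The chemokine ligand genes that were called had all risen. Of 23 tested, 9 rose, none fell (1 was lower at an unadjusted p under 0.05) and 14 were not called, with a list median of 1.64. Cxcl3, a neutrophil attractant, stood at 26.9, 40.9 and 21.2 scaled TPM against 0.178, 1.46 and 0.346 (4.23 ± 0.39, adjusted p = 0.00315) and was more even across the tumour libraries. The monocyte attractants Ccl2 and Ccl7 (3.91) and the neutrophil attractant Cxcl2 were uneven, with Ccl2 at 9.58, 124 and 25.02 against 0, 0.604 and 0. Ccl1, a ligand of the receptor CCR8, was highest in tumour replicate 1, at 42.1, 9.46 and 22.8 against 3.24, 1.12 and 0 (3.41). Replicate 2 was the highest tumour library for 17 of the 23 genes, and 13 of 23 rose without it in the fit of the other 11 libraries. Among 20 migration receptors, Cxcr4 (2.70) and S1pr1, the egress receptor (1.29), rose, and Ccr7 and Gpr183 fell. Ccr2, the receptor of Ccl2 and Ccl7, stood at 12.2, 234 and 51.5 against 3.45, 5.39 and 1.997 (adjusted p = 0.0509).

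Inhibitory receptors shared Tigit and Ctla4 with the regulatory list. Of 19 tested, Havcr2, Tigit, Ctla4 and Cd200r1 (2.22) rose, Cd200 fell and 14 were not called. Tigit stood at 273, 406 and 250.3 scaled TPM against 54.3, 54.4 and 24.9 (2.82 ± 0.38, adjusted p = 0.0132) and Ctla4 at 134, 374 and 150 against 16.5, 53.3 and 29.8 (2.68 ± 0.51, adjusted p = 0.029). Every tumour library was above every Th1 library for both genes. The wild-type Tfh culture was close to the tumour cells here, with Tigit at 219.6 ± 44.2 (SD) and Ctla4 at 154 ± 24.6. Of 19 costimulatory genes, Icos, Tnfrsf1b (TNF receptor 2, 2.02) and Tnfsf10 (TRAIL, 1.99) rose, and Tnfsf4 (the OX40 ligand, −1.56) and Cd226 (−1.55) fell. Among 20 integrin and retention genes, Itgb8 (3.76), Itgam (3.07), Itgae, Itgav (1.95) and Prdm1 rose and none fell. Replicate 2 was the highest tumour library for 18 of the 20, beside 35.3% of all genes tested. The list median was 0.64, and 0.33 without that library in the fit of the other 11 libraries. The macrophage markers were also highest in that library, and their part in these levels was not tested. Itgb8 and Itgav encode the pair of chains that activates latent TGFβ, and Itgb8 stood at 17.7, 32.3 and 19.4 against 0.363, 1.14 and 0.754.

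In the TGFβ list of 17 genes, the receptor gene Tgfbr1 (1.15) and the signal carrier Smad3 (1.34) rose, 1 gene fell and 14 were not called. Among 18 IL-2 and STAT5 genes, Socs2, a feedback inhibitor, stood at 38.6, 40.9 and 36.5 scaled TPM against 6.10, 9.24 and 8.49 (2.16 ± 0.26, adjusted p = 0.00995) and Pim2, a survival kinase, fell (−2.09). The list of 20 naive and quiescence genes split, with Klf2, S1pr1 and Igfbp4 (1.55) called higher and Ccr7, Dapl1 and Satb1 (−1.96) called lower. Satb1, a chromatin organiser of T cells, stood at 85.2, 106 and 83.2 against 258, 348 and 507, and all 3 Th1 libraries were well above the tumour libraries. Among 26 immediate early genes Egr1 was the 1 called gene, at 37.2, 68.3 and 49.5 against 16.4, 7.54 and 17.4 (1.87), with a list median of 0.84. With all 12 libraries 4 rose, and this count was 13 without tumour replicate 1, 7 without Th1 replicate 3, 1 without tumour replicate 3 and 2 without each of the other 3.

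The summed level of mitotic genes in the tumour cells lay between those of the Th1 culture and the Tfh cultures. The list of 30 summed to 406, 481 and 358 scaled TPM in the tumour libraries, to 112, 236 and 206 in the Th1 libraries and to 815 to 2452 in the 6 Tfh culture libraries. In the 6-library fit 4 rose (Mki67, Cdca8, Ccnb2 and Ube2c), none fell and 26 were not called, with a list median of 1.04, and with all 12 libraries 20 rose. Leaving out single libraries from that fit gave 11 to 22, with 11 without tumour replicate 2 and 13 without Th1 replicate 1. Mki67, which encodes the proliferation antigen Ki-67, stood at 27.6, 58.7 and 27.6 in the tumour against 1.38, 7.08 and 7.73 (2.73 ± 0.54, adjusted p = 0.0309). Cdca8 (borealin), a subunit of the chromosomal passenger complex, stood at 57.01, 36.98 and 42.7 against 9.80, 15.1 and 8.06 (1.98 ± 0.31, adjusted p = 0.0181). Ccnb2, a mitotic cyclin, rose by 1.82, and Ube2c, the ubiquitin enzyme of the anaphase-promoting complex, by 1.35. Cdk1 at 24.1, 27.02 and 15.6 against 0.516, 24.1 and 17.9 overlapped between the groups, with Th1 replicate 1 far below the rest. Against the wild-type Tfh culture 15 of the 30 were lower and none higher, with a list median of −1.22. Of 30 DNA replication genes none was called by limma (1 was higher and 1 lower at an unadjusted p under 0.05, and 1 was called higher and none lower with all 12 libraries). Without Th1 replicate 1 the fit of the other 11 libraries called 15 of the 30 lower, and the 5 fits without another library called at most 1 lower. Their list median of −0.38 turned to 0.72 on the deposited values, and Pcna stood at 101 to 151 against 113 to 321.

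Cell cycle promoters carry the letters TTTGAA, the common form of the cell cycle homology region, and CCAAT, bound by NF-Y. Searched on both strands of the same 300 bases, each motif occurred in 21 of the 26 mitosis promoters at hand (80.8%), against 16.1% and 43.1% of all tested. The 170 bases before the start are printed for the 4 members that rose, with every match to either motif in capitals.
Mki67, chr7:135716380-135716549, minus strand: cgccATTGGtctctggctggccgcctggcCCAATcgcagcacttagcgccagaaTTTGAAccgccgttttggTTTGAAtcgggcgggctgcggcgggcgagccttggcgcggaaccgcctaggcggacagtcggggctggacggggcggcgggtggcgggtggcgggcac
Cdca8, chr4:124936918-124937087, minus strand: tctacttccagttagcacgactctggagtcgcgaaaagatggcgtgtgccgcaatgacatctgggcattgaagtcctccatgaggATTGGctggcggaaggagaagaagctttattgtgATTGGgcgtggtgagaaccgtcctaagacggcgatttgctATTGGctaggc
Ccnb2, chr9:70421555-70421724, minus strand: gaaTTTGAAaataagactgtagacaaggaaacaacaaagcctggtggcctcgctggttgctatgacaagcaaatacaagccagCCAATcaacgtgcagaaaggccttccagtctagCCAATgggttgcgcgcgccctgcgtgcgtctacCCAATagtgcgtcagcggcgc
Ube2c, chr2:164769759-164769928, plus strand: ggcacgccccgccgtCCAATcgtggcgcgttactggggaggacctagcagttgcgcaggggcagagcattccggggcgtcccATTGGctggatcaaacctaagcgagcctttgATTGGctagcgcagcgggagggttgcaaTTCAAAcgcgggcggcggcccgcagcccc
The other motifs searched in the same windows, TTCNNNGAA (STAT), TGANTCA (AP-1), AGGTGTGA (T-box) and CACGTG (E-box), occurred in 10.1%, 11.8%, 0.983% and 8.6% of genes that rose, in 8.03%, 5.11%, 2.19% and 17.2% of genes that fell and in 8.83%, 7.25%, 1.23% and 10.5% of all tested. Within the printed stretches Mki67, Ccnb2 and Ube2c held 4 matches each, and Cdca8 held 3, all of CCAAT and none of TTTGAA. The shares concern the whole list, most of which was not called in the 6-library fit.

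**Figure D5:**
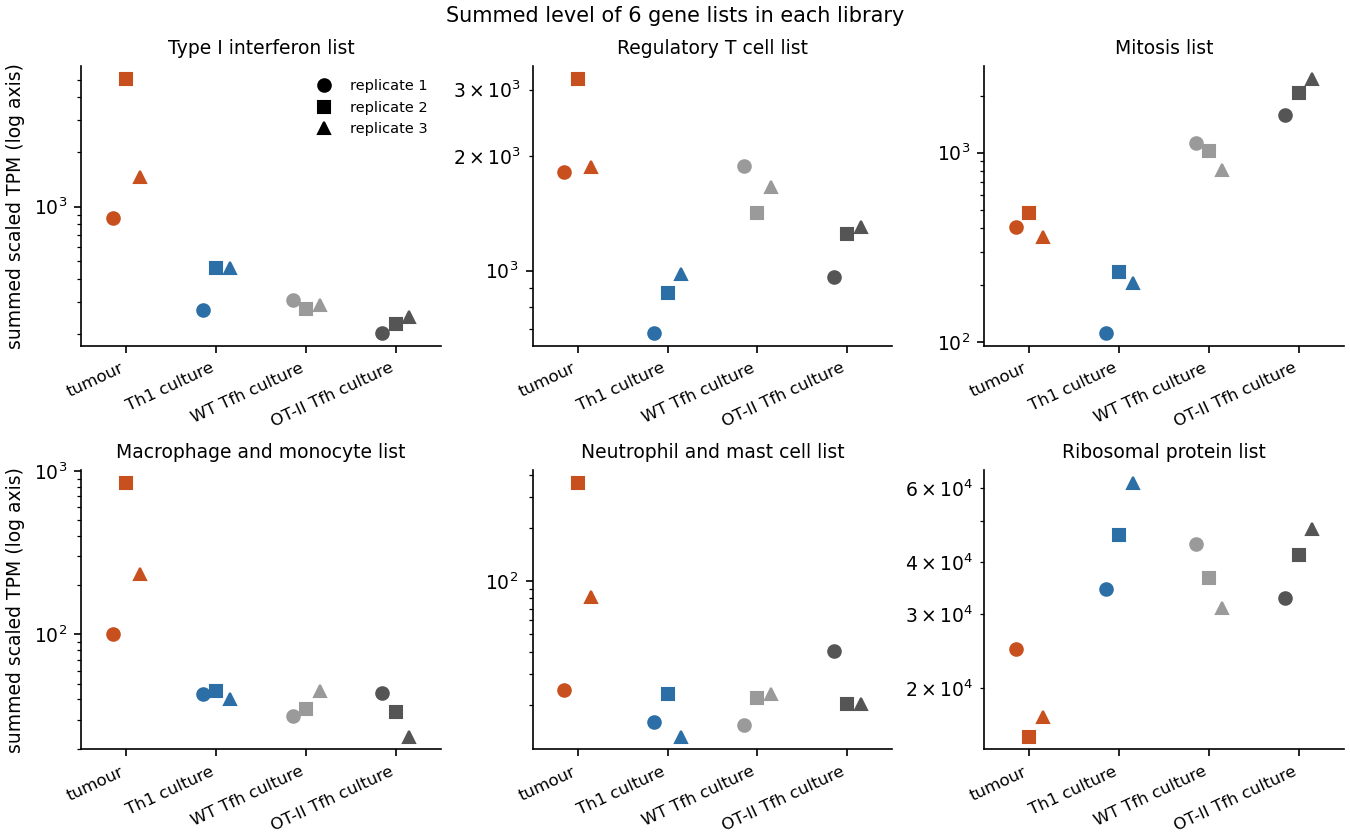
Each panel gives the summed scaled TPM of a gene list on a log axis for the 3 tumour, 3 Th1, 3 wild-type Tfh and 3 OT-II Tfh libraries. Tumour replicate 2 (square) is the highest tumour point in every panel but that of the ribosomal proteins, where it is the lowest, and the tumour libraries lie between the Th1 culture and the Tfh cultures in the mitosis panel alone.

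Apart from the satellite-like models, genes of protein synthesis and respiration had the lowest list medians. Of 30 cytosolic ribosomal protein genes, 9 fell, Rpl5 rose and 20 were not called, with a list median of −1.34 after scaling and −0.13 on the deposited values, where none was called lower. With all 12 libraries 25 fell, and 15 to 27 fell with single libraries left out, 15 without tumour replicate 2 and 16 without tumour replicate 3. Over all genes, 1776 fell with all 12 libraries, 972 without tumour replicate 2 and 1093 without tumour replicate 3. The list summed to 15280 to 24720 scaled TPM in the tumour libraries and to 34490 to 61820 in the Th1 libraries, without overlap, and the 6 Tfh culture libraries were also above the tumour range, at 30970 to 47990. Rps2 stood at 688, 339 and 616 against 1876, 2465 and 4243 (−2.36 ± 0.49, adjusted p = 0.0342). Rpl5 went the other way, at 908, 479 and 620.2 against 118, 156 and 162 (2.16 ± 0.35, adjusted p = 0.0187), and its level in the wild-type Tfh culture was 1523 ± 174 (SD). Ribosomal protein genes have many processed pseudogenes among which reads can be split, and exons of Rpl5 and Rps2 overlap a small nucleolar RNA gene on the same strand, so these single values are uncertain.

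Of 25 nuclear genes of the respiratory chain, 6 fell, none rose and 19 were not called, with a list median of −1.16 after scaling that turned to 0.04 on the deposited values. Cyc1 (cytochrome c1) stood at 28.5, 17.5 and 20 scaled TPM against 61.1, 83.1 and 123 (−1.94 ± 0.33, adjusted p = 0.0227), and Ndufb3 (−1.59), Sdhc (−1.58), Cox5a (−1.57), Ndufa1 (−1.47) and Ndufb8 (−1.37) were the others. The fit of all 12 libraries gave 17 falls of the 25, and 14 to 20 with single libraries left out. The 13 mitochondrially encoded genes were not called in either direction by limma, none passed an unadjusted p under 0.05, and they varied widely among the Th1 libraries, from 5033 to 39900 scaled TPM in sum. Of 25 cholesterol and fatty acid synthesis genes, 3 fell, none rose and 22 were not called, with a median of −0.79 that turned to 0.39 on the deposited values. Sqle (−1.34), which makes sterols, and Acly (−1.24), which makes cytosolic acetyl-CoA, were among the falls. All 12 libraries together gave 12 falls of the 25, 14 without Th1 replicate 1, 7 without tumour replicate 3 and 8 without each of the other 4. Glycolysis genes had a median of −0.85, which turned to 0.36 on the deposited values, and Eno3 (−1.88) and the lactate transporter gene Slc16a1 (−1.54) fell. In the fit of all 12 libraries 6 of the 20 glycolysis genes fell, against 12 without Th1 replicate 1, 4 without tumour replicate 2 and 3 without each of the other 4. The ATF4 and amino acid list of 24 had a median of −1.03, which turned to 0.16, and Slc7a3, an arginine transporter, was the 1 called gene (−2.08), while 15 were lower at an unadjusted p under 0.05. With all 12 libraries 12 of the 24 fell, and 4 to 15 fell with single libraries left out, 4 without tumour replicate 2 and 5 without Th1 replicate 3. Genes that fell had shorter transcripts than the rest, with a median longest transcript of 1680 bases against 2688 for all tested and 2284 for those that rose, and the part of transcript length in these lists was not tested.

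Transcripts of other cell types were present at different levels in the 3 tumour libraries. Of 18 macrophage and monocyte markers, 5 rose (Lyz2, Fcgr1, Fcgr3, Cd14 and Apoe), none fell and 13 were not called, and their summed levels are given above. Lyz2 stood at 29.7, 218 and 61.9 scaled TPM against 0.975, 1.81 and 0.308, and Cd14, the co-receptor for lipopolysaccharide, at 3.25, 62.3 and 14.2 against 0.399, 0.299 and 0.253. The neutrophil and mast cell markers summed to 24.4, 360 and 81.5 in tumour replicates 1, 2 and 3 against 13.2 to 22.9, with S100a9 at 0.344, 211 and 27.8. Markers of MHC class II presentation summed to 160, 610 and 243 against 123 to 232. In every one of these lists replicate 2 was the highest and replicate 1 the lowest tumour library. Markers of epithelial and colon carcinoma cells summed to 10.96 to 26.3 against 9.003 to 14.9, where Epcam, an adhesion molecule of epithelia, rose (1.48) at 3.54, 5.53 and 4.66 against 0.896, 0.746 and 1.33. B cell markers summed to 155 to 208 against 219 to 313 and CD8 T cell markers to 19.9 to 29.9 against 22.6 to 25.9. Fibroblast markers, a list that holds the T cell gene Thy1, summed to 286.5 to 423 against 143 to 195.5, and dendritic cell markers to 47.2 to 118 against 32.6 to 45.4. Both were without overlap and without a called member by limma, with 1 and 3 members higher and none lower at an unadjusted p under 0.05. Plasma cell markers summed to 87.4 to 184 against 269.6 to 476. Most of these sums came from Irf4, a member of that list whose levels are given above among the Tfh transcription factors. NK cell markers summed to 65.8 to 161 against 33.4 to 72.9, endothelial markers to 98.3 to 143 against 69.9 to 213.5, and red blood cell and platelet markers to 17.9 to 29.0 against 11.02 to 19. Beyond these, Klre1 rose and Klra4 fell among the NK cell markers, the antibody gene Igkc fell among the B cell markers and Mzb1 among the plasma cell markers, Mmp8 rose among the neutrophil markers and Pf4 among the platelet markers. No marker of the 12 lists was at 0 in all 3 tumour libraries, and Ly6g, Cldn3 and Hba-a1 were in the Th1 libraries. The part of any of these cells in the results was not tested.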

How the data were processed

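RNA was measured in 12 mouse libraries, of which 6 are compared here. The authors deposited TPM values, which sum to 1000000 in each library, for 35492 gene symbols. The tool kallisto and the build mm10 are named in the submitters' processing notes, and versions are not given in the sources used here. Per the labels' protocols, ribosomal RNA was depleted and the kit kept strand information. Here each library was divided by its median ratio to the geometric mean over the 17585 symbols above 0 in all 12 libraries. Genes with a mean of at least 1 in either group entered limma 3.58.1 (R 4.3.3) on log2(scaled TPM + 1), group only, moderated with a mean trend and adjusted by Benjamini-Hochberg over all genes tested. The code was tested on simulated data. Alternatives were no scaling, trimmed-mean scaling, removal of abundant models, other pseudocounts and filters, group weights, all 12 libraries, a replicate block and single libraries left out of the 6. Fits that leave 1 library out of all 12 were added after seeing the data.

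Genes named in the text were the 15 strongest called rises and the 15 strongest called falls (standard names, mean of 5 or more, groups not overlapping), up to 5 called members each way and 4 others per list, and a fixed set of lineage genes. Members and lists were chosen with earlier results of these data known. Gene positions come from GENCODE M21, which matched 97.96% of the symbols. Confidence intervals are at 95%. The 32 lists of T cell and housekeeping programmes hold, beside those in the text, hypoxia (4 higher and 2 lower at an unadjusted p under 0.05), endoplasmic reticulum chaperones (1 and 2) and heat shock genes (4 and 2), none of which had a called member. A few genes that the rule names are not reported here.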

Additional observations from a re-analysis of the deposited data

How the results depend on the processing

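The 815 rises and 392 falls became 9332 and 81 on TPM as deposited, 1694 and 224 with abundant models removed, 951 and 275 with trimmed-mean scaling, 2429 and 1776 with all 12 libraries in the fit, 220 and 74 without a filter on low values, and 849 and 673 with a minimum mean of 5. Pseudocounts of 0.1 and 5 gave 641 and 302, and 586 and 277, and group weights gave 650 and 332. With 1 library left out, rises ran from 39 to 2453 and falls from 7 to 2100 over the 6-library and the 11-library fits. By construction, the scalings differ in the factor that divides each library, and a fit without 1 library rests on fewer samples. Why the size factors differ between the groups was not tested. Deviations of same-numbered libraries from their group means correlated at 0.035, −0.064 and 0.026 over genes. Those of differently numbered libraries correlated at −0.115 to 0.104. The labels do not say what a number marks, and these values cannot exclude that it marks something shared. A replicate block gave 818 rises and 269 falls. All 113 called genes named in the text kept their direction in each alternative in which they were tested; 89 were still called on TPM as deposited, 45 without a filter and 90 with the replicate block. Among genes that were not called, fold changes turned positive on TPM as deposited for Bst2 (0.27), Btla (0.087), Cd4 (0.54), Il12rb2 (0.42), Il21 (0.54), Pcna (0.58), Stat4 (1.095), Tbx21 (0.40) and Tnf (0.68). Stat4 also turned positive with abundant models removed (0.27) and trimmed-mean scaling (0.014). With 1 library left out, fold changes spanned 0 for Stat4 (−0.38 to 0.24), Gbp2 (−0.28 to 0.47), Tcf7 (−0.043 to 0.41) and Tnfrsf18 (−0.37 to 0.25). TPM keeps no depth, so the counting error behind low values is unknown.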

Other observations

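Of 19 tested genes of lysosomes and antigen processing, Grn (progranulin) and Cd63 rose, none fell and 17 were not called, with a list median of 0.84, and all 19 were highest in tumour replicate 2 among the tumour libraries. Grn stood at 18.1, 83.1 and 28.1 scaled TPM in the tumour libraries and at 5.08, 5.64 and 2.73 in the Th1 libraries, with a log2 fold change of 2.76 (limma, adjusted p = 0.0292). The macrophage markers were also highest in that library, and their part in these levels was not tested. Among 15 tested genes of the BCL-2 family, Bcl2a1a, which has near-identical copies between which reads can be split, was the one call, at 8.36, 22.3 and 7.69 against 0, 2.90 and 2.08. Among 20 genes of the T cell receptor complex, Trbc2, a constant region gene of the receptor's beta chain, was the one call. It stood at 211, 192 and 154 against 354, 637 and 554, with a log2 fold change of −1.44 (limma, adjusted p = 0.0471), and at −0.22 on TPM as deposited, where it was not called.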
